A study of Mus musculus with 6 samples.

Results

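The subjects of this account were the transcripts of 7 subunits of the GABA-A receptor, Gabra2, Gabra3, Gabra4, Gabra5, Gabrb1, Gabrb2 and Gabrd, taken by name from the 55471 genes of a hippocampal RNA-seq count table. All 7 were found in the table and all 7 were tested, each with between 99 and 6414 raw counts in a library. The table held 1 library from each of 3 p300-ifKO and 3 control mice, adult males of 3 to 6 months (C57BL/6 in the labels, C57BL/6J in the study's methods). In p300-ifKO mice, floxed alleles of Ep300, the gene for the acetyltransferase p300, were recombined by creERT2 under the Camk2a driver, that is, in excitatory neurons of the forebrain and not in interneurons or glia. The ifKO (inducible forebrain knockout) can still make a truncated p300 without acetyltransferase activity. All 6 mice received 5 doses of tamoxifen (20 mg/ml). Controls are described as littermates lacking creERT2, although the description attached to each control library names the driver.

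The GABA-A receptor is a chloride channel built of 5 subunits around a pore, in most cases α and β subunits together with a γ or a δ subunit. GABA binds between α and β subunits, and the α subunit largely sets where the receptor sits and how fast its current decays. Receptors with α2 or α3 are found mainly at synapses and carry fast inhibition, whereas receptors with α5, or with α4 together with δ, lie mainly outside synapses and carry tonic inhibition. In the hippocampus, α5 is known for pyramidal cells of CA1 and CA3, and α4 and δ for granule cells of the dentate gyrus.

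On GRCm38, Gabra2 (ENSMUSG00000000560, chromosome 5, 70957597 to 71095849, minus strand), Gabra4 (ENSMUSG00000029211, 71569749 to 71658308, minus strand) and Gabrb1 (ENSMUSG00000029212, 71658113 to 72149037, plus strand) lay in 1 cluster on chromosome 5. Gabra4 and Gabrb1 faced each other head to head, and their first exons overlapped. The overlap made up 0.756% of the exonic bases of Gabra4 and 0.332% of those of Gabrb1. Gabra3 (ENSMUSG00000031343) lay on chromosome X at 72432681 to 72656848, minus strand. Gabra5 (ENSMUSG00000055078) lay on chromosome 7 at 57407672 to 57510059, minus strand. It shared 4.98% of its exonic bases with Gm9962 on the opposite strand. Gabrb2 (ENSMUSG00000007653) lay on chromosome 11 at 42419757 to 42629028, plus strand. Gabrd (ENSMUSG00000029054) was the most compact of the 7 genes, on chromosome 4 at 155384980 to 155398112, minus strand. The counting strand was not given in the sources used here, so reads in these overlaps could belong to either gene. Of all 50-base stretches of exon, 3.59% of Gabra5, 0.548% of Gabra2 and 0.205% of Gabra3 also occurred in another gene, and none of the other 4 genes had any.

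Promoter windows of 300 bases (250 before and 50 after a RefSeq start, GRCm38.p6) were at hand for 6 of the 7 genes, 10 windows in all. CBP and p300 are coactivators of CREB, the factor that binds the cAMP response element (CRE), and motifs of activity-regulated factors were therefore searched on both strands. The windows below belong to Gabra4 and Gabrb1, the head-to-head pair, and to Gabrb2, the gene with the widest spread between libraries. Capitals mark matches to the motifs searched.
Gabra4, chr5:71658259-71658558, minus strand: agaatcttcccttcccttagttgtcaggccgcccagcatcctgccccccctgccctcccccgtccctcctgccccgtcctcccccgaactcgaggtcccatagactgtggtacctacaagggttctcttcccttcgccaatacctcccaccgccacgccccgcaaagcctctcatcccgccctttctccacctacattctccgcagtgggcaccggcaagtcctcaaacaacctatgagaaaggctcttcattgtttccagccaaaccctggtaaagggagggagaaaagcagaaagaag
Gabrb1, chr5:71657671-71657970, plus strand: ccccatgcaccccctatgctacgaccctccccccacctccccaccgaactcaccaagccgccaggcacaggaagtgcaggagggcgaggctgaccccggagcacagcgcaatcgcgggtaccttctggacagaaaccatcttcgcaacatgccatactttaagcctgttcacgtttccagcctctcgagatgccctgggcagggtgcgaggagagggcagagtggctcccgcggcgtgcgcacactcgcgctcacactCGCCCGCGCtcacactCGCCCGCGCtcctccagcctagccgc
Gabrb2, chr11:42420190-42420489, plus strand: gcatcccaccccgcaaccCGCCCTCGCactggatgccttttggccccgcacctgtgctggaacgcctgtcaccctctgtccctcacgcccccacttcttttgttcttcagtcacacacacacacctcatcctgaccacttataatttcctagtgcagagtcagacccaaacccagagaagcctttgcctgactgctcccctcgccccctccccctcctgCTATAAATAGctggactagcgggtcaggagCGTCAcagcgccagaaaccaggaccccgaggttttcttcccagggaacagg

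The full CRE, TGACGTCA, occurred in 0 of the 10 windows, against 1.79% of 32851 windows over all genes. The shorter CRE motif TGACG occurred in 1 window, that of Gabrb2, where it reads on the minus strand (20.8% of all windows). The EGR motif GCGNGGGCG occurred in the Gabrb1 and Gabrb2 windows shown (5.55% of all windows), as 2 matches in Gabrb1. In Gabrb2 the capitals before that short motif mark a MEF2 motif (CTA and TAG with 4 bases between) that overlaps a TATA motif, TATAAA. The MEF2 motif was in 1 of the 10 windows (3.69% of all windows) and the TATA motif in 3 (13.6% of all windows). Both windows of Gabra3 are among these 3, but they overlap and hold the same TATA site. The AP-1 motif TGANTCA was in 0 (7.81% of all windows). These are matches of letters within the windows.

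To see which subunits dominated in this tissue, counts were divided by the DESeq2 size factor of the library (normalized counts) and by the exonic length of the gene in kilobases. Gabra5 had the highest level per kilobase, 1917 ± 207 (SD, n = 6), and ranked first in each of the 6 libraries. Then came Gabra3 (563 ± 61.8), Gabra2 (552 ± 162), Gabra4 (486 ± 72.1), Gabrd (339 ± 67.0), Gabrb1 (308 ± 59.0) and Gabrb2 (127 ± 109), each per kilobase as mean ± SD over 6 libraries. Gabra5, the α subunit of extrasynaptic receptors in pyramidal cells, alone made up between 38.5% and 48.0% of the summed level of the 7 genes. This share holds for exonic length only. Per kilobase of coding sequence its lead was smaller, with a mean of 4104 against 3115 for Gabra2, the next gene.

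**Figure D1:**
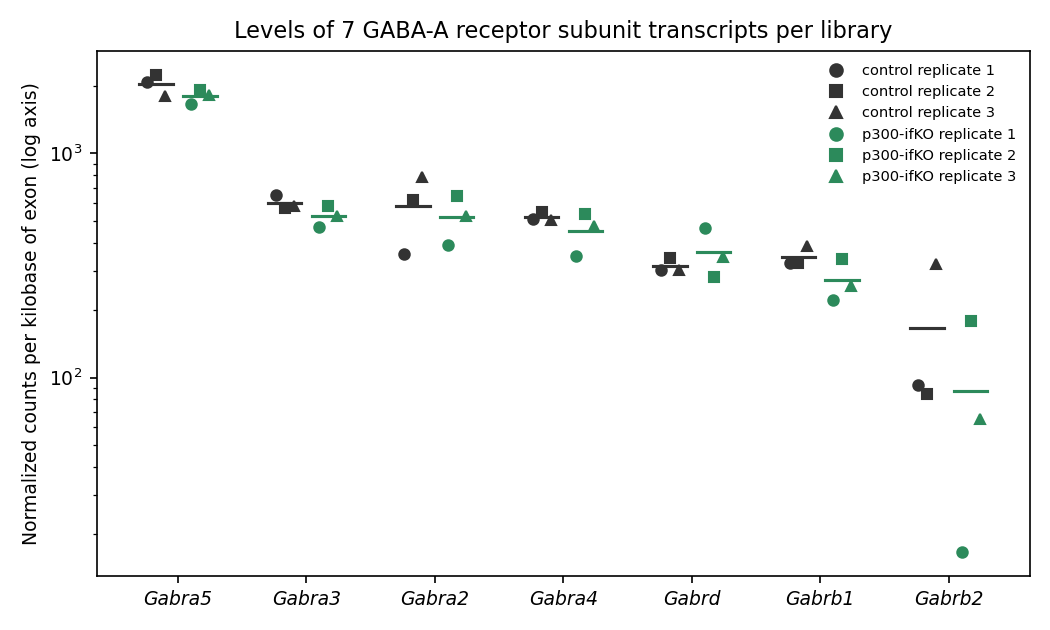
Level of each subunit gene in normalized counts per kilobase of exon (log axis). Symbols are single libraries, 3 control (black) and 3 p300-ifKO (green), and horizontal lines are group means. Gabra5 lies above every other gene in each library, and Gabrb2 spreads widest, from 16.7 to 321.4.

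Neighbours in this order were compared within libraries by an exact two-sided sign-flip permutation test, adjusted over the 6 neighbouring pairs. With 6 libraries the smallest p possible was 0.03125. Gabra5 exceeded Gabra3 in 6 of 6 libraries, by 1.77 ± 0.13 on the log2 scale (exact permutation p = 0.03125, adjusted p = 0.09375). Gabrb1 exceeded Gabrb2 in 6 of 6 libraries, by 1.77 ± 1.18 (exact permutation p = 0.03125, adjusted p = 0.09375). Those pairs had the smallest p that the design allows, and neither passed 0.05 after adjustment. With this floor and 6 pairs, they could not have passed unless more pairs reached the floor too. The order tested was itself taken from the means of the same libraries. Gabra4 exceeded Gabrd in 5 of 6 libraries, by 0.53 ± 0.49 (exact permutation p = 0.0625, adjusted p = 0.125).

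The middle ranks were not separated by the spread between libraries. Gabra3 and Gabra2 differed by 0.08 ± 0.45 on the log2 scale (adjusted exact permutation p = 0.719). Gabra2 and Gabra4 differed by 0.14 ± 0.38 (adjusted exact permutation p = 0.609), and Gabrd and Gabrb1 by 0.14 ± 0.53 (adjusted exact permutation p = 0.719). The middle order also depended on the length used. Gabrb1, of whose 13838 exonic bases only 10.3% are coding, ranked 6 per kilobase of exon and 3 per kilobase of coding sequence. Gabra5 stayed at rank 1 and Gabrb2 at rank 7 with exonic length, coding length and the length of the longest protein-coding transcript.

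Each subunit was then compared between p300-ifKO and control mice. None of the 7 genes passed an adjusted p of 0.05 in DESeq2 (adjusted p = 0.991 for each, Benjamini-Hochberg over 32773 genes). Over all genes tested, 2 passed, or 0.00610%, Esr1 and Arsi. At an unadjusted p under 0.05, the count was 0 of 7 members against 432 genes or 1.32% of all. The quasi-likelihood test of edgeR, with its filter, likewise called 0 of 7, with 0 at an unadjusted p under 0.05. In edgeR without a filter, Gabrb1 had an unadjusted p of 0.0386, as 1 of 1292 genes under 0.05. In DESeq2 with a replicate block it had 0.0425, as 1 of 440. The 3 p300-ifKO values overlapped with the 3 control values for every member, whereas the groups were apart for 6.64% of all genes tested. Fitted log2 fold changes were below 0 for 6 members and above 0 for Gabrd, with a median of -0.19, against -0.05 over all genes tested and -0.004 over the 12252 with a mean of at least 100 normalized counts. Of all genes tested, 54.7% were below 0, and of those 12252, 50.7%. With bulk hippocampus, fewer cells of a type and less RNA per cell cannot be told apart.

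Among the synaptic α subunits, Gabra2, which encodes the α2 subunit found at the axon initial segment and other synapses of principal cells, had 2718, 4704 and 5974 normalized counts in control replicates 1 to 3. It had 2971, 4909 and 4011 in p300-ifKO replicates 1 to 3. The lowest and the highest of the 6 values were both controls. The means were 4465 ± 1641 (SD, n = 3) in controls and 3963 ± 969.9 (SD, n = 3) in p300-ifKOs, a log2 fold change of -0.17 (SE 0.29, DESeq2). Its 95% interval ran from -0.73 to 0.39. Only 4.43% of the genes with a mean of at least 100 normalized counts had a larger SD of log2 values over the 6 libraries.

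The low Gabra2 value of control replicate 1 was not shared by its neighbours on chromosome 5. In that library Gabrg1, which encodes the γ1 subunit, had 577 normalized counts, against 584 and 592 in the other control libraries. Gabra4 had 3109 there, between the other controls, and Gabrb1 had 4463, close to the 4496 of control replicate 2. After offsets for exonic length and GC content in each library, Gabra2 in control replicate 1 was still at 2614 normalized counts, with the other 5 libraries between 3989 and 5352.

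Gabra3, on the X chromosome, encodes the α3 subunit, which is known more for monoaminergic and thalamic reticular neurons than for hippocampal principal cells. It had 2556, 2238 and 2279 normalized counts in controls and 1831, 2282 and 2069.6 in p300-ifKOs. Only p300-ifKO replicate 2 reached the control range. The means were 2358 ± 173 and 2061 ± 225 (SD, n = 3 each), with a log2 fold change of -0.19 (SE 0.14, 95% interval -0.46 to 0.08, DESeq2).

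Among the subunits of extrasynaptic receptors, Gabra5 had 6152, 6666 and 5349 normalized counts in controls and 4951, 5668 and 5419.9 in p300-ifKOs. The third control lay below p300-ifKO replicates 2 and 3. The log2 fold change was -0.18 (SE 0.13, 95% interval -0.44 to 0.08, DESeq2), with means of 6056 ± 664 and 5346 ± 364 (SD, n = 3 each).

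Gabra4, the α partner of δ in the dentate gyrus, had 3109, 3319.9 and 3057 normalized counts in controls and 2116, 3247 and 2891 in p300-ifKOs. The control values were close together, and 2 of the 3 p300-ifKO values lay below them. The means were 3162 ± 139 and 2752 ± 579 (SD, n = 3 each), and the log2 fold change was -0.20 (SE 0.18, 95% interval -0.55 to 0.15, DESeq2).

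Gabrd, which encodes the δ subunit that makes receptors sensitive to low ambient GABA and to neurosteroids, was the only member with a positive fold change. It had 871, 976 and 863 normalized counts in controls and 1339, 803 and 990.4 in p300-ifKOs. The p300-ifKO group held both the lowest and the highest value. The means were 903 ± 63.0 and 1044 ± 272 (SD, n = 3 each), with a log2 fold change of 0.21 (SE 0.20, 95% interval -0.19 to 0.61, DESeq2). Without p300-ifKO replicate 1 the sign turned, to -0.01.

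For the β subunits, Gabrb1 had 4463, 4496 and 5334 normalized counts in controls and 3076, 4671 and 3546 in p300-ifKOs. Replicates 1 and 3 of p300-ifKO lay below every control and replicate 2 within the control range. The means were 4764 ± 494 and 3764 ± 819.7 (SD, n = 3 each). The log2 fold change was -0.34 (SE 0.18, 95% interval -0.70 to 0.02, DESeq2), and its unadjusted p, 0.0655, was the smallest among the 7 members in this model across all genes.

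Gabrb2, which encodes the β2 subunit, had 592, 537 and 2044 normalized counts in controls and 106, 1136 and 415 in p300-ifKOs. The third control stood 3.81-fold above the lowest control, the p300-ifKO values spanned 10.7-fold, and the 6 values together spanned 19.2-fold. The means were 1057 ± 855 and 552 ± 528 (SD, n = 3 each). The log2 fold change of -0.94 was the largest in size among the members but had an SE of 1.01 and a 95% interval from -2.93 to 1.05 (DESeq2). This spread was rare: 0.0816% of the genes with a mean of at least 100 normalized counts had a larger SD of log2 values. With length and GC offsets, Gabrb2 still ran from 124.0 to 1914 normalized counts over the 6 libraries.

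**Figure D2:**
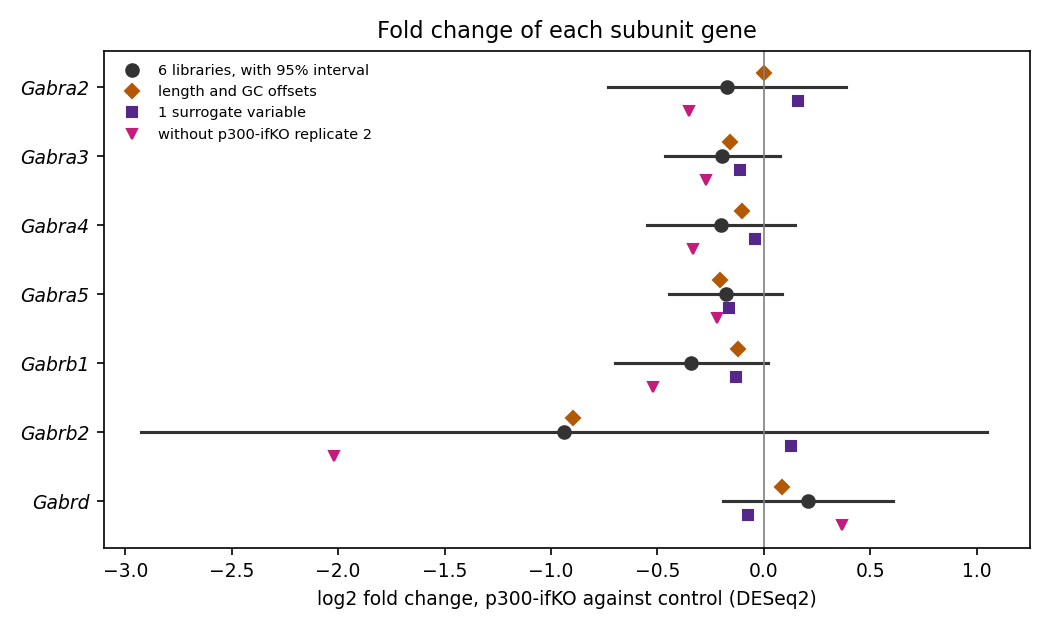
log2 fold change of each subunit gene, p300-ifKO against control, in DESeq2. Black points with bars are the fit to 6 libraries with 95% intervals, all of which include 0, and coloured symbols are 3 alternative fits. Gabrb2 has the widest interval, from -2.93 to 1.05, and Gabra2, Gabrb2 and Gabrd change sign with 1 surrogate variable.

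The libraries themselves differed along 1 axis that did not separate the genotypes. Among the 1000 genes that varied most, with the 7 members left out, the first principal component took 66.7% of the variance. It ordered the libraries as control 3, p300-ifKO 2, control 1, control 2, p300-ifKO 3 and p300-ifKO 1. The Spearman correlation between exonic length and the deviation of a gene from its mean, across 17071 genes, followed nearly the same order. It ran from 0.42 in p300-ifKO replicate 2 and 0.41 in control replicate 3 to -0.50 in p300-ifKO replicate 1. Of the 15 pairs of libraries, Gabrb2 ranked 15 in the order of the component, Gabrb1 14, Gabra2 and Gabra3 12 each, Gabra4 10 and Gabra5 8. Gabrd ranked 14 of the 15 pairs in the opposite order. In p300-ifKO replicate 1, at the low end of the component, Gabrd was at its highest and Gabra3, Gabra4, Gabra5, Gabrb1 and Gabrb2 were at their lowest. The part of this axis in the fold changes was not tested apart from the alternative fits that follow.

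**Figure D3:**
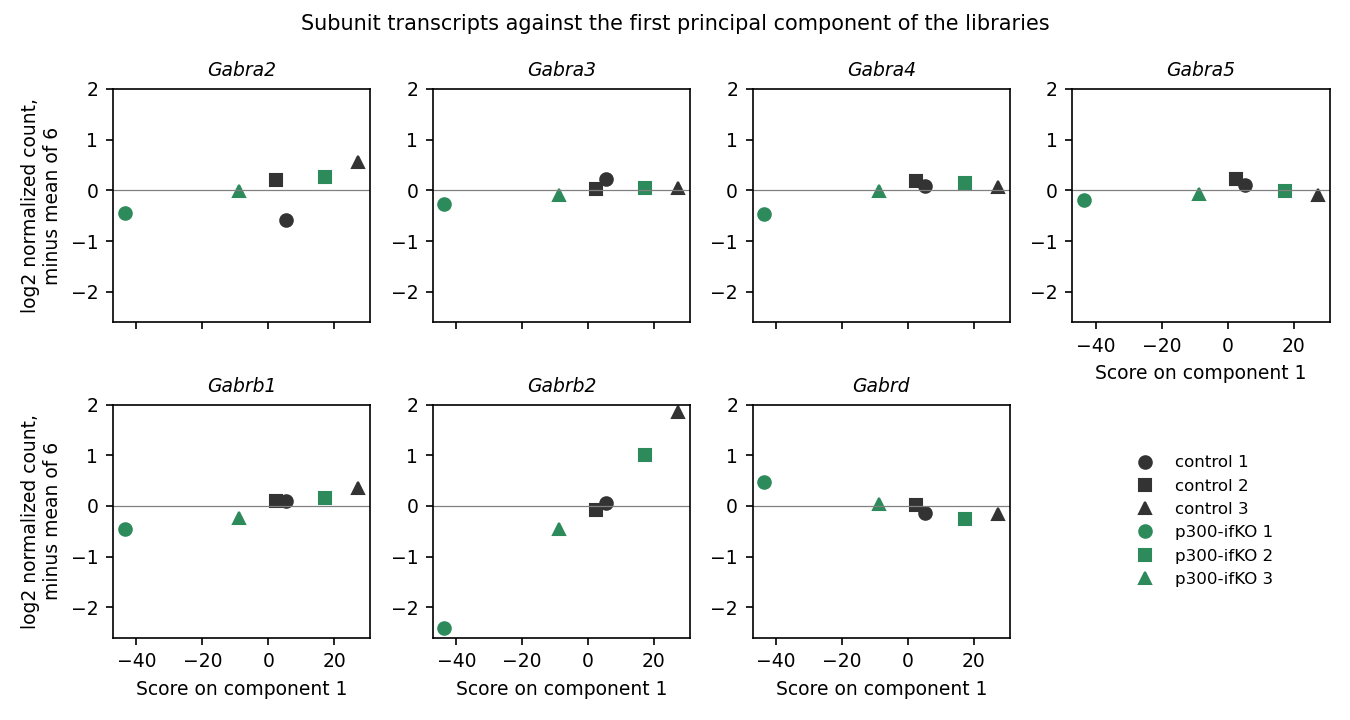
log2 normalized count of each subunit gene, centred on its mean over 6 libraries, against the score of the library on the first principal component (66.7% of the variance of 1000 genes without the members). Each symbol is 1 library. Gabrb2 follows the order of the scores in 15 of 15 pairs of libraries, Gabrd runs against it in 14, and Gabra5 has the narrowest spread.

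Fits that take up differences between libraries moved the members in both directions. With length and GC offsets, the log2 fold change in DESeq2 was -0.12 for Gabrb1, -0.10 for Gabra4, 0.09 for Gabrd and 0.001 for Gabra2. It hardly moved for Gabra5 (-0.21), Gabra3 (-0.16) and Gabrb2 (-0.90). With 1 surrogate variable, Gabra2, Gabrb2 and Gabrd changed sign, to 0.16, 0.13 and -0.07, and Gabra4 was at -0.04. Under a replicate block, Gabrb2 moved away from 0, to -1.35, and Gabrb1 was at -0.36 and Gabra4 at -0.22. No member was called with offsets or with a surrogate variable (lowest adjusted p 0.952 and 1.0 in DESeq2). Gabra3, Gabra4, Gabra5 and Gabrb1 stayed below 0 in every fit and with each library left out, but their size depended on single libraries. Without p300-ifKO replicate 1, Gabra4 was at -0.04, Gabra3 at -0.12, Gabrb1 at -0.22 and Gabra2 at -0.003. Without control replicate 2, Gabra5 was at -0.10. Without control replicate 3, Gabrb2 was at -0.03 and Gabra2 at 0.10, and without control replicate 1 Gabra2 was at -0.43.

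One library decided the only call among the members. Without p300-ifKO replicate 2, Gabrb1 was called lower in DESeq2, at -0.52 on the log2 scale with an SE of 0.14 and an adjusted p of 0.0214. That made 1 of 7 members called lower, against 445 of 11129 genes tested, or 4.0%, and 493 further genes were called higher in that fit. In the same fit Gabrb2 was at -2.02, Gabra2 at -0.35, Gabra4 at -0.33, Gabra3 at -0.27, Gabra5 at -0.22 and Gabrd at 0.37, none of them called. The replicate left out had the highest total count, 28433823, and among the p300-ifKO libraries the highest count of the targeted gene. It scored 17.3 on the first principal component. The libraries kept scored 5.30, 2.37 and 27.4 in control replicates 1 to 3, and -43.6 and -8.73 in p300-ifKO replicates 1 and 3. Every control kept thus lay above every p300-ifKO kept, and genotype and component cannot be told apart in that fit. Ep300 had 1545, 1474 and 2334 normalized counts in controls and 478, 1350 and 912 in p300-ifKOs (log2 fold change -0.97, SE 0.33, unadjusted p = 0.00369 and adjusted p = 0.991 in DESeq2). Ep300 was called lower with 1 surrogate variable (-0.48, adjusted p = 0.00127 in DESeq2) and without p300-ifKO replicate 2 (-1.36, adjusted p = 0.000356), and its adjusted p was between 0.134 and 1.0 in the other fits. Crebbp, the gene for the related CBP, differed by -0.05 (SE 0.11). Esr1, part of whose sequence is carried in creERT2, had 87.2 to 109.4 normalized counts in controls and 2416 to 4217 in p300-ifKOs. Total counts of the other libraries were between 23151568 and 25401155.

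The balance between extrasynaptic and synaptic subunits was read as the summed level per kilobase of Gabra4, Gabra5 and Gabrd over that of Gabra2 and Gabra3. This ratio was 2.86, 2.64 and 1.91 in controls and 2.90, 2.22 and 2.51 in p300-ifKOs. The group means, 2.47 ± 0.50 and 2.54 ± 0.34 (SD, n = 3 each), differed by less than the spread within either group. Gabra5 carried the excess of the extrasynaptic sum: without it, the ratio was 0.715 in controls and 0.798 in p300-ifKOs. The summed level of all 7 genes was 4305, 4722 and 4671 per kilobase in controls and 3573, 4459 and 4016 in p300-ifKOs.

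Single pairs of subunits shifted more between libraries. Gabrd over Gabra4, the δ subunit and its α partner, was 0.593, 0.622 and 0.598 in controls and 1.34, 0.523 and 0.725 in p300-ifKOs, so that the controls lay close together and p300-ifKO replicate 1 stood apart. Gabrb1 over Gabrb2 was 3.47, 3.85 and 1.2 in controls and 13.3, 1.89 and 3.93 in p300-ifKOs, an 11.1-fold range with overlapping groups. Gabra5 over Gabra2 was 5.81, 3.64 and 2.30 in controls and 4.28, 2.97 and 3.47 in p300-ifKOs. In contrast, Gabra4 over Gabrb1, the head-to-head pair, stayed between 1.30 and 1.86 in all 6 libraries. Among the 21 pairs of members, the profiles least apart were those of Gabra3 and Gabra5, with a root mean square difference of 0.115 (log2 scale). Those most apart were Gabrb2 and Gabrd, at 1.54. The head-to-head pair was at 0.152, further apart than Gabra3 and Gabra4 (0.127) or Gabra4 and Gabra5 (0.144), which lie on different chromosomes.

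**Figure D4:**
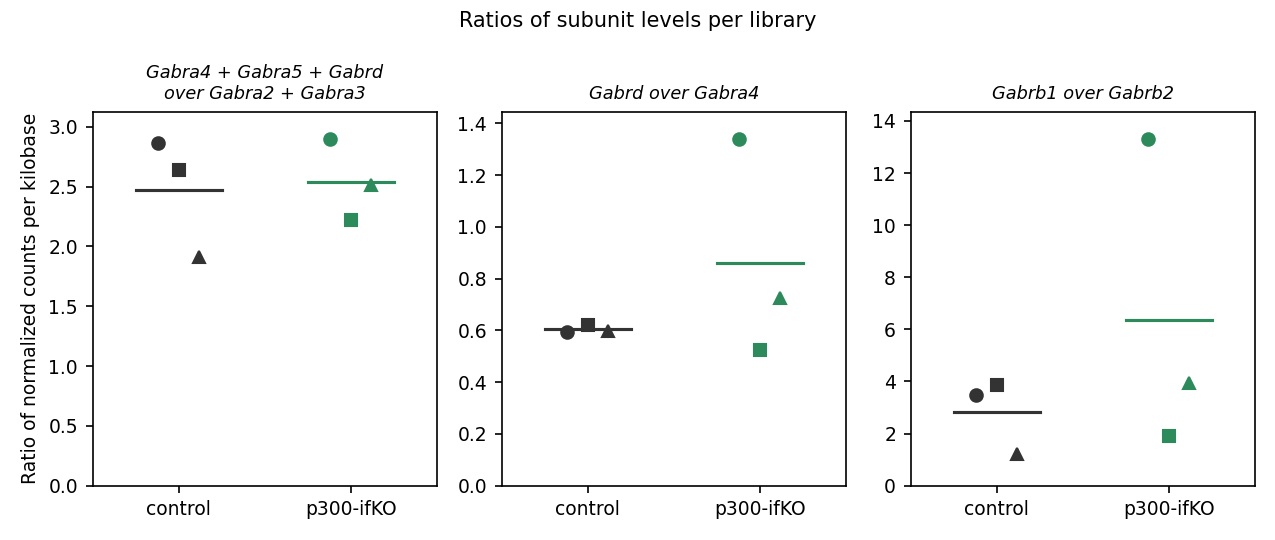
Ratios of levels per kilobase of exon in each library, with group means as lines and axes starting at 0. The left panel gives the summed extrasynaptic over the summed synaptic subunits, with means of 2.47 in controls and 2.54 in p300-ifKOs, and the other panels give Gabrd over Gabra4 and Gabrb1 over Gabrb2, where p300-ifKO replicate 1 stands highest at 1.34 and 13.3.

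The profile of each member over the 6 libraries was set against those of 12246 other genes with a mean of at least 100 normalized counts, as the root mean square difference of centred log2 values. The gene least apart from Gabrb2 was Zkscan16, a zinc finger gene, at 0.086, with the next gene at 0.266. Zkscan16 had 249.6, 230.1 and 830.7 normalized counts in controls and 43.0, 526.7 and 196.7 in p300-ifKOs, a range as wide as that of Gabrb2. Other members had closer partners: Prdx1 for Gabrd (0.013), Lgr4 for Gabra4 (0.017), Mtss1l for Gabra3 (0.0218), Rab3c for Gabrb1 (0.0276) and Fgf13 for Gabra5 (0.038). These differences describe 6 libraries and share their depth and length effects.

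Other genes of the GABA system were read from 7 lists with 53 genes, 52 of them tested. None was called in either direction, against 0.00610% of all genes tested, and 1 had an unadjusted p under 0.05 in DESeq2, against 1.32%. Fitted fold changes were below 0 for 36 and above 0 for 16, with a median of -0.12. To set beside these counts and those of each list that follows, 54.7% of all genes tested were below 0, with a median of -0.05. Of genes with a mean of at least 100 normalized counts, 50.7% were below 0. Without p300-ifKO replicate 2, 3 of the 40 list genes tested in that fit were called (7.50%). All were lower, including Abat and Slitrk3, where 4.0% of all genes were called lower.

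Of the other GABA-A subunits, 0 of 8 tested genes were called, with 7 below and 1 above 0. Gabrg1 had 584 ± 7.59 normalized counts in controls and 466 ± 102 in p300-ifKOs (SD, n = 3 each), a log2 fold change of -0.33. Gabra6, whose α6 subunit is known for granule cells of the cerebellum, was at 1.05 normalized counts or less in each library. The 9 genes of the list that were in the table summed to between 968 and 1392 normalized counts, against 16390.5 to 24900 for the 7 members.

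Genes that anchor the receptor or assist it were called in 0 of 11 cases, with 8 below and 3 above 0. Gphn, the gephyrin scaffold of inhibitory synapses, differed by -0.06, and Slitrk3, an adhesion protein of these synapses, by -0.30, the largest difference of the list. Of the 11 genes of receptor trafficking, 0 were called, 6 were above and 5 below 0, and Gabarap, the GABA-A receptor-associated protein, differed by 0.28.

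All 8 genes for the synthesis, transport and breakdown of GABA had fold changes below 0, and 0 were called (median -0.24). Abat, the transaminase that breaks down GABA, had 7120.2, 7682 and 7960 normalized counts in controls and 5457 to 7112 in p300-ifKOs. Its log2 fold change was -0.28 (SE 0.14, unadjusted p = 0.0466 and adjusted p = 0.991 in DESeq2). Gad1 and Gad2, the enzymes that make GABA in interneurons, differed by -0.14 and -0.25. Slc6a13, a GABA transporter of the meninges, differed by -0.46 (SE 0.36) and was lifted in control by replicate 3 alone (290.8, against 139.2 and 112.4).

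The remaining lists also had 0 called genes. Of 4 genes of chloride and bicarbonate balance, 3 were below 0, and Car7, a carbonic anhydrase, differed by 0.19. Of 5 genes of the GABA-B receptor, 4 were below 0, and its auxiliary subunit Kctd16 differed by -0.40 (SE 0.34). Of 5 genes of neurosteroid synthesis, 4 were above 0, with 0.22 for Cyp11a1, the enzyme of the first step.

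**Figure D5:**
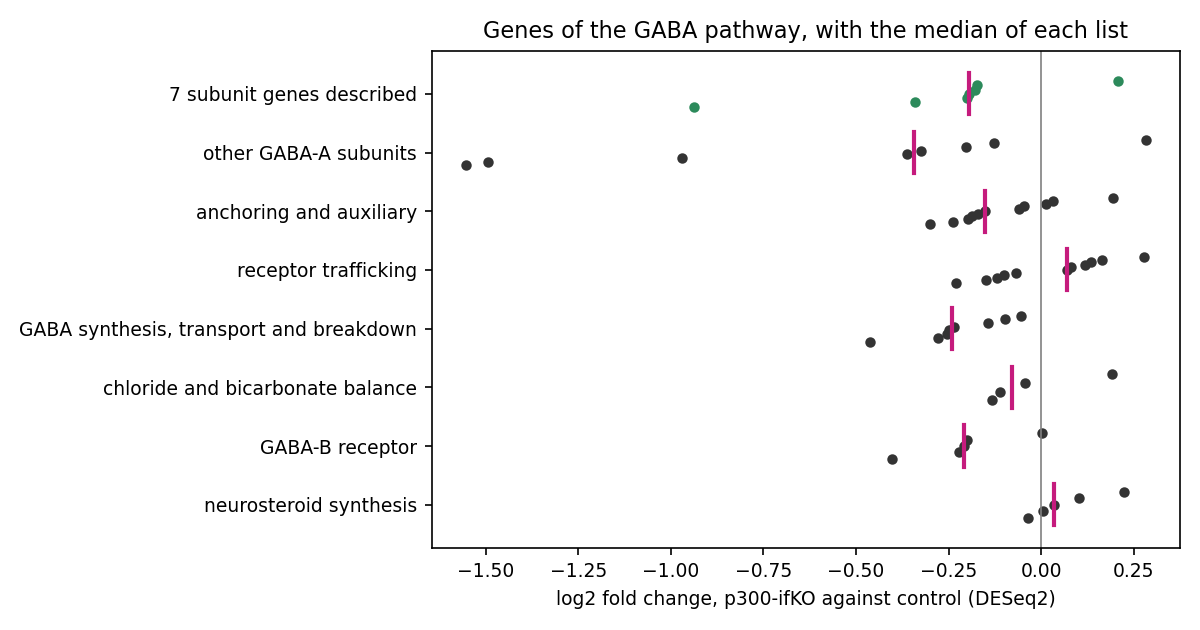
log2 fold change, p300-ifKO against control (DESeq2), of the 7 subunit genes (green) and of the tested genes of 7 further lists of the GABA system (black). Vertical bars are list medians, which run from -0.34 for the other GABA-A subunits to 0.07 for receptor trafficking, and no gene passed an adjusted p of 0.05.

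Markers of the cells that carry or contact these receptors were read the same way. Of the 6 markers of dentate granule cells, home of α4 and δ, 0 were called, and their sum was 8141 to 9896 normalized counts in controls and 8316 to 8681 in p300-ifKOs. Markers of CA1 pyramidal cells summed to 18420.4 to 21473 and 17285 to 18647, and those of interneurons to 27746.5 to 31774 and 26526 to 34212. Microglial markers summed to 6182 to 6658 in controls and 6829 to 7614 in p300-ifKOs and astrocyte markers to 37965 to 39501.5 and 35472.5 to 36823, without overlap, as for 6.64% of single genes. Each of these gaps rested on 1 marker. Without C1qa, the other 4 microglial markers summed to 5271 to 5581 in controls and 5525 to 5826 in p300-ifKOs, and without Slc1a3, the other 4 astrocyte markers summed to 17628 to 18874 and 18410.0 to 19468, so that both overlapped. Oligodendrocyte markers overlapped between the groups (89865 to 118914 and 98096 to 126379). Choroid plexus markers, a sign of tissue carried along in dissection, ranged from 733 to 3756 in controls and from 1385 to 5459 in p300-ifKOs. None of these markers was called, and their part in the subunit values was not tested. Along the component of the libraries, p300-ifKO replicate 1 had the highest sums of interneuron (34212), microglial (7614) and oligodendrocyte (126379) markers of the 6 libraries. The interneuron markers did not move together there, since Gad1 (9074) and Gad2 (2858) were at their lowest of the 6 libraries in p300-ifKO replicate 1.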

How the data were processed

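Hippocampal RNA from 6 mice was sequenced by the authors as single-end reads of 50 bp. Per the submitters' processing notes and the study's methods, reads were trimmed (Trim Galore 0.6.4), aligned with STAR 2.6.1 to GRCm38, filtered by mapping quality, which removes reads that match several places, and counted on exons of Ensembl genes. The authors deposited raw counts per gene, which were used as they stand. The number of unused columns of other samples was 0. Total counts were 23151568 to 28433823 per library.

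Symbols, positions and exonic lengths came from GENCODE M21 on the same build (99.57% of identifiers matched), promoter windows from RefSeq. Groups were compared with DESeq2 1.42.0 (two-sided Wald test, no covariate, Benjamini-Hochberg over all genes tested, threshold 0.05), in R 4.3.3. Alternatives were edgeR 4.0.16, limma-voom (limma 3.58.1), TMM factors, other filters, a threshold of 0.1, a replicate block, 1 surrogate variable (sva 3.50.0), smooth length and GC offsets (mgcv 1.9.3) and leaving out each library. The length of the longest protein-coding transcript and marker sums without 1 marker were added after seeing the data. Fits were checked on simulated data. SDs are over libraries. P-values between genotypes are over 3 mice a group, with fewer in the group of a library left out. Permutation p-values of the order of levels are within libraries, over the 6 libraries of both groups.

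The members, lists and tests were chosen with earlier results of these data known. From the lists of the GABA system, genes were named if called, if their unadjusted p was under 0.05 or if their fold change was the largest with a mean of at least 50 normalized counts. The gene least apart in profile from a member was named as well. Some genes that meet these rules are not reported here. Gphn, Gad1, Gad2, Gabra6 and Arsi were named after their values were seen.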

Additional observations from a re-analysis of the deposited data

How the results depend on the processing

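Every alternative in DESeq2, edgeR and limma-voom that kept all 6 libraries called 0 of the 7 subunit genes, and leaving out 1 library called 0 to 1. For all genes the count was 2 (Esr1 and Arsi), with 3 under 1 surrogate variable (Ep300 was added), 4 under the replicate block and 2 to 938 when 1 library was left out. For the lists of the GABA system it was 0 to 3 when 1 library was left out. Deviations of same-numbered libraries correlated at 0.27, -0.28 and 0.13. With so few libraries, these values cannot settle whether same-numbered mice form pairs. The replicate block called 0 of the 7 subunit genes, as did the fit without it, so that count does not settle it either. Under the block the unadjusted p of Gabrb1 was 0.0425 (DESeq2).

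The log2 fold change of Gabra2 changed sign with 1 surrogate variable (0.16), with length and GC offsets (0.0012) and among libraries left out (-0.43 to 0.10). That of Gabrb2 changed sign with 1 surrogate variable (0.13), with -2.02 to -0.03 among libraries left out. That of Gabrd changed sign with 1 surrogate variable (-0.072) and among libraries left out (-0.012 to 0.37). Gabrb1 ran from -0.52 to -0.22, Gabra4 from -0.33 to -0.044, Gabra3 from -0.27 to -0.12 and Gabra5 from -0.26 to -0.10 among libraries left out. The cause was not tested.

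Without division by length, the log2 ratio was 1.37 for Gabra5 over Gabra3, -0.88 for Gabra3 over Gabra2, 1.61 for Gabra4 over Gabrd, -2.13 for Gabrd over Gabrb1 and 2.89 for Gabrb1 over Gabrb2. With coding length, these were 1.57, -1.13, 1.24, -2.05 and 3.00, with 0.83 for Gabra2 over Gabra4. With the longest coding transcript, Gabra3 over Gabra2 was -0.21 and Gabra2 over Gabra4 was -0.038. Leaving out 1 library gave -0.083 to 0.18 for Gabra3 over Gabra2 and -0.047 to 0.24 for Gabrd over Gabrb1. The ratio of extrasynaptic to synaptic levels was 1.54 in both groups without division by length, 1.5 in both with coding length, and 0.715 (control) and 0.798 (p300-ifKO) without Gabra5.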
